A study of Mus musculus with 4 samples.

Results

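The genes described here are the 45 that encode the core machinery of DNA replication and the last steps that supply it with deoxynucleotides. They were chosen by name and function from 54838 genes listed in each file, with earlier results of these data known. They fall into 8 roles: origin licensing (8 genes), the MCM helicase (6), its activation (6), primase and the replicative polymerases (9), the sliding clamp and its loader (6), single-strand binding (3), Okazaki fragment maturation (2) and deoxynucleotide synthesis (5). RNA was sequenced from Hepa1-6, a mouse hepatoma cell line, in 2 groups. NC samples (n = 2) carry the wild-type gene for Acvr2a, an activin type II receptor, and KO samples (n = 2) are labelled as Acvr2a knockout. The series' design text speaks of knockout subclones. Whether each KO sample is a subclone of its own was not given, and nothing states that the replicates were separate cultures. The p-values below therefore measure the spread between these samples, which may be technical. Growth conditions, cell density and cell cycle state were not given in the sources used here.

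Replication starts where the origin recognition complex, Cdc6 and Cdt1 load the MCM ring onto DNA in G1. In S phase Cdc45 and GINS turn the ring into an active helicase, polymerase alpha-primase lays down primers, and polymerases delta and epsilon extend them while held by the Pcna ring. Ribonucleotide reductase, thymidylate synthase and thymidine kinase provide the deoxynucleotides, and many of these genes are transcribed at the G1/S boundary under E2F factors. In RNA from a whole culture, fewer cells in S phase and less of these RNAs in each cell cannot be told apart.

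Library totals ran from 11597923 to 13910582 expected counts, and 12510 genes passed the filter on low counts, among them 45 of 45 replication and nucleotide genes. Libraries of 1 group correlated at 0.989 over log2 counts per 1000000 (CPM) and libraries of different groups at 0.963 to 0.972. Of 12 hepatocyte markers 10 were tested, and their summed level was 5505 and 5083 CPM in NC and 4363 and 4351 CPM in KO. Apoe had the largest fall in CPM (mean 2381 CPM in NC and 1247 CPM in KO). By ratio Afp fell most of those tested, to 43.1% of its NC level by the fit, against 52.4% for Apoe. Afp (267 and 115 CPM), Hnf4a (222 and 111 CPM) and Fgb (24.3 and 14.4 CPM) were also lower in KO. Alb (799 and 1058 CPM) and Trf (386 and 559 CPM) were higher in KO, all at an edgeR adjusted p under 0.05. Apoa1, Apoa2, Apob and Krt18 did not pass, and Ttr and Serpina1a were not tested. Leukocyte markers summed to between 2.37 and 4.48 CPM with Cd3e and Cd8a at 0, and endothelial markers to between 0.835 and 2.11 CPM with Cdh5, Emcn and Tek at 0. The fibroblast list summed to 1481 and 1490 CPM in NC and 1630 and 1709 CPM in KO, nearly all of it Dcn, with Col3a1, Lum and Thy1 at 0. Dcn did not pass (edgeR adjusted p = 0.193). Pdgfra (mean 11.8 CPM in NC and 23.2 CPM in KO) and Col1a1 (0.444 and 2.96 CPM) were higher in KO by the same test. Col1a2 and Pdgfrb, at low counts, were not tested. The part of the hepatocyte and fibroblast marker differences in the results below was not tested.

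Acvr2a itself, at chromosome 2, 48814109 to 48903269 on the plus strand (GRCm38, GENCODE M21), read 7.12 and 7.80 CPM in NC and 5.69 and 7.18 CPM in KO. The groups overlapped, and the log2 fold change of KO against NC was -0.21 (SE 0.20), with an edgeR adjusted p of 0.433. Thus the RNA count did not set the groups apart, and the directions below rest on the libraries' KO and NC labels. Acvr2a shares 446 exon bases with Orc4, a gene of the origin recognition complex on the opposite strand.

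In the libraries labelled KO, 30 of the 45 genes were lower than in NC and 2, Orc3 and Rfc1, were higher, by edgeR's quasi-likelihood test at an adjusted p under 0.05. The remaining 13 did not pass. Over all genes tested, 18.2% were lower and 19.7% higher by the same rule. The median log2 fold change was -0.39 over the 45 genes and -0.0037 over all genes tested, and the 45 ranged from -1.10 (Tyms) to 0.31 (Orc3). Sizes were moderate: the gene that changed most, Tyms, was at 46.5% of its NC level by the fit. Both KO libraries were below both NC libraries for 38 of the 45 genes and above them for 3, with overlap for 4; over all genes, 34.7% were lower and 34.8% higher without overlap.

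**Figure D1:**
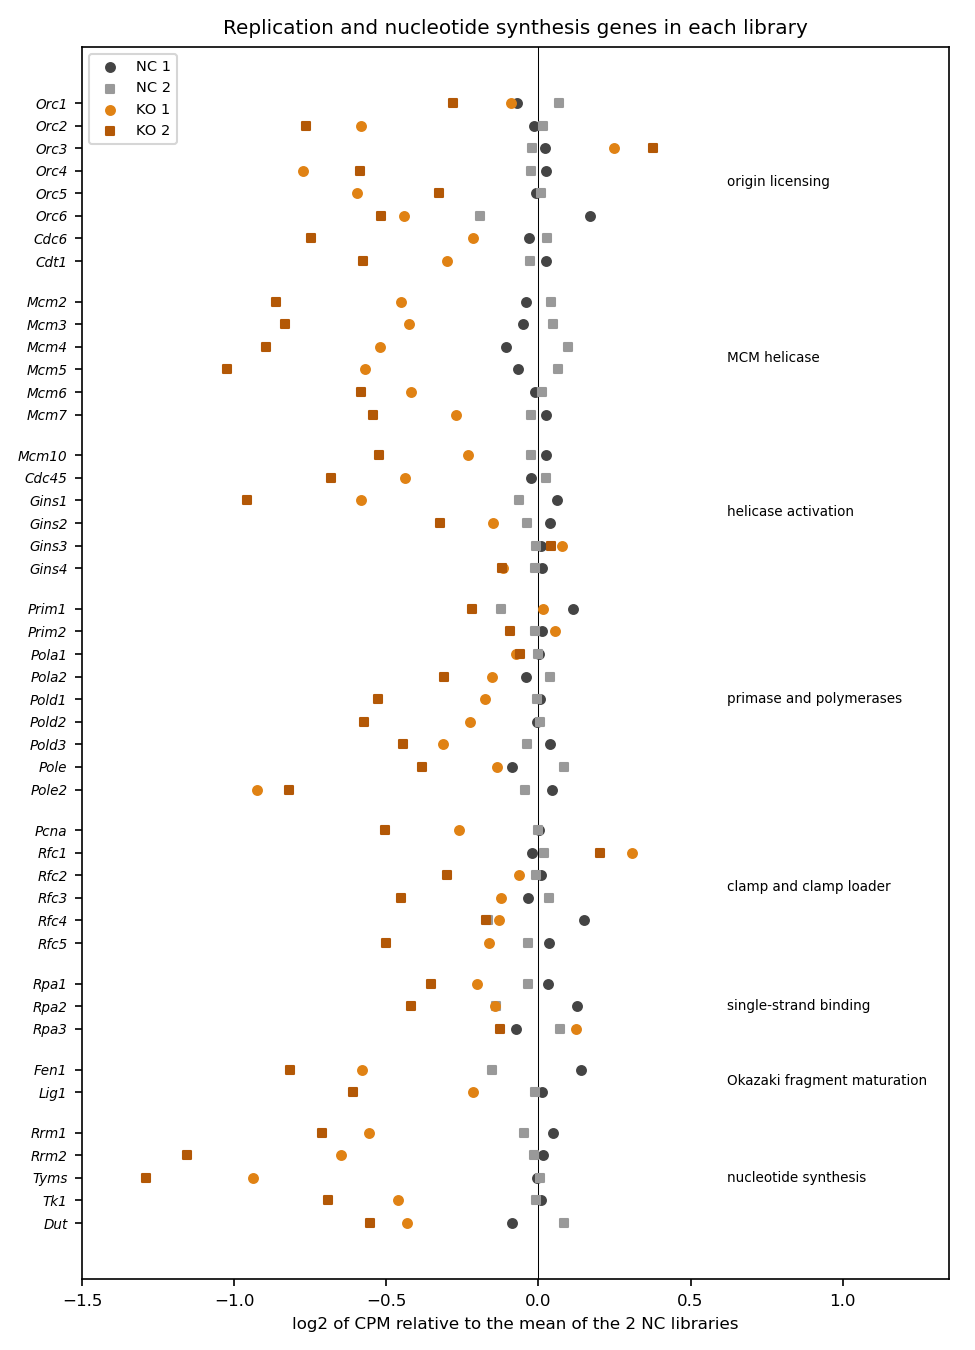
Level of each of the 45 genes in each of the 4 libraries, as log2 CPM minus the gene's NC mean, grouped by role. Most KO points sit below the NC points, and the second KO library is below the first for 40 of 45 genes.

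The 2 KO libraries were not alike. KO replicate 2 was below KO replicate 1 for 40 of 45 genes, with a median log2 ratio of -0.23, while over all 12510 genes it was lower for 6156 with a median of 0.0033. The NC libraries differed less, with replicate 2 lower for 27 of 45 genes and a median log2 ratio of -0.016. Without KO replicate 2 the number of lower genes was 20 and the median -0.23, and without KO replicate 1 they were 34 and -0.52. Cdc6, Mcm10, Pold1, Pold2, Pold3, Pcna, Rfc3, Rfc5, Rpa1 and Lig1 did not pass without KO replicate 2, and Orc3 no longer passed as higher. Without KO replicate 1, Gins2, Pola2, Pole, Rfc2 and Rpa2 passed as lower in addition, and Orc5 did not pass. Without NC replicate 1, Pole passed in addition, and Orc6, Pold3, Rfc5 and Rpa1 did not pass. Orc3 and Rfc3 did not pass without NC replicate 2. Rfc1 passed as higher without KO replicate 2 (adjusted p = 0.0479) but not without any of the other libraries.

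The 5 genes of deoxynucleotide synthesis were all lower, with a median log2 fold change of -0.63, the same as for the MCM ring. Tyms, thymidylate synthase, makes dTMP from dUMP. The gene lies on chromosome 5, 30058202 to 30073617 and read 34.5 and 34.7 CPM in NC and 18.1 and 14.1 CPM in KO. Both NC libraries stood clear of both KO libraries, and the log2 fold change was -1.10 (SE 0.13), with an edgeR adjusted p of 2.66e-07. Rrm2, the small subunit of ribonucleotide reductase whose level rises in S phase, read 116 and 114 CPM in NC and 73.4 and 51.7 CPM in KO. The NC libraries were close to each other, KO replicate 2 was the lowest, and the log2 fold change was -0.88 (SE 0.11), adjusted p = 9.71e-07. Rrm1, the large subunit of the same enzyme, read 194 and 181 CPM in NC and 127 and 115 CPM in KO. It also separated the groups, with a log2 fold change of -0.63 (SE 0.09) and an adjusted p of 6.98e-06. Tk1, the thymidine kinase of the salvage route, read 83.7 and 82.8 CPM in NC and 60.5 and 51.6 CPM in KO. Its groups did not overlap, and its log2 fold change was -0.57 (SE 0.10), adjusted p = 5.64e-05. Dut, which removes dUTP and yields the substrate of Tyms, read 62.2 and 70.0 CPM in NC and 49.0 and 45.1 CPM in KO. It fell by the least of the 5 genes, with a log2 fold change of -0.49 (SE 0.10) and an adjusted p of 0.000358. Per unit of transcript length, Rrm2 was at 64.2 and 65.8 TPM in NC and 44.2 and 29.9 TPM in KO. Rrm1 was near it, at 55.6 and 56.3 TPM in NC and 40.8 and 36.5 TPM in KO.

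All 6 subunits of the MCM ring were lower, with log2 fold changes from -0.78 to -0.40. Mcm5 (chromosome 8, 75109569 to 75128439) changed most and read 140.2 and 153 CPM in NC and 98.7 and 72.1 CPM in KO. The 2 NC libraries were the highest and KO replicate 2 the lowest, and the edgeR adjusted p was 3.73e-06. Mcm4 read 84.4 and 97.2 CPM in NC and 63.3 and 48.9 CPM in KO, a log2 fold change of -0.70 (SE 0.11). Mcm2 read 264 and 279.7 CPM in NC and 199 and 149.5 CPM in KO, a log2 fold change of -0.64 (SE 0.11). Mcm3 read 258 and 276 CPM in NC and 199 and 149.8 CPM in KO, a log2 fold change of -0.62 (SE 0.11). Those 3 subunits, which with the rest form 1 heterohexamer around DNA, had the same order of libraries as Mcm5 and Mcm6. From highest to lowest it was NC replicate 2, NC replicate 1, KO replicate 1, KO replicate 2. Mcm6 read 223 and 227 CPM in NC and 168 and 149.99 CPM in KO, a log2 fold change of -0.50 (SE 0.09). Mcm7 read 474 and 457 CPM in NC and 386 and 319.5 CPM in KO, a log2 fold change of -0.40 (SE 0.10). The groups did not overlap for either gene, and adjusted p-values for the ring ran from 3.73e-06 to 0.00188. In TPM, which divides by length and so allows genes to be compared, Mcm7 was the most abundant subunit at 299.8 and 287 TPM in NC and 261 and 211 TPM in KO. Mcm4 was the least abundant, at 26.8 and 32.4 TPM in NC and 21.9 and 16.2 TPM in KO. Mcm7 overlaps exons of Ap4m1 and Cops6 on the opposite strand and hosts Mir25 and Mir93, and the strand setting of the counting was not given in the sources used here.

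To show sequence beside these values, the 250 bases before the transcription start are printed for 3 genes that fell and 1 that rose, from RefSeq on GRCm38.p6. They were picked as the MCM subunits with overlapping pairs of E2F-type words (Mcm5 and Mcm6), the gene with the greatest fall (Tyms) and the higher gene that holds such a word (Orc3). E2F-type words are TTTCCCGC, TTTCGCGC, TTTGCCGC and TTTGGCGC on either strand, and are in capitals. The regions are chr8:75109259-75109508 on the plus strand for Mcm5, chr1:128359706-128359955 on the minus strand for Mcm6, chr5:30073626-30073875 on the minus strand for Tyms and chr4:34614943-34615192 on the minus strand for Orc3.
Mcm5: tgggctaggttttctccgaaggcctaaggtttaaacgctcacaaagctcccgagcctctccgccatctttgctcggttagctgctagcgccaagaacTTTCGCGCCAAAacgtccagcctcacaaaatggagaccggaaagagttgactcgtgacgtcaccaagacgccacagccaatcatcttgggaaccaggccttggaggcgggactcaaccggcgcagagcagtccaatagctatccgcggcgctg
Mcm6: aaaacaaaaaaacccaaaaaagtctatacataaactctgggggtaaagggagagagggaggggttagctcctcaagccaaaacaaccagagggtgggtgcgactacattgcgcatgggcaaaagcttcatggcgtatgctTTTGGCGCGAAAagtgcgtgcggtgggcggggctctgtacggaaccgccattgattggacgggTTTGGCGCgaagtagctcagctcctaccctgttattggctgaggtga
Tyms: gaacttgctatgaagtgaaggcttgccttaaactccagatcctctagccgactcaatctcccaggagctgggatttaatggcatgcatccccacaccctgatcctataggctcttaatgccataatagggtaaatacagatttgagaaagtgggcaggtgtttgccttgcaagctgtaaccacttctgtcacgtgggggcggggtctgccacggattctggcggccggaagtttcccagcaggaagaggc
Orc3: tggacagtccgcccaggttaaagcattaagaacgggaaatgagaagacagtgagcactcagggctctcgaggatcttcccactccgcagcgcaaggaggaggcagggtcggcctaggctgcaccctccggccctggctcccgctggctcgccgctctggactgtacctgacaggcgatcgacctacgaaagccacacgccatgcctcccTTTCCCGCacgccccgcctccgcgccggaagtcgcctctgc

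In Mcm5 the words begin 153 and 149 bases before the start and overlap each other on opposite strands. Mcm6 has such a pair 110 and 106 bases before the start and a further word at 47 bases. Orc3, which was higher in KO, has 1 word 41 bases before the start, and Tyms has none of these letters in the window. Promoters of 38 of the 45 genes were in the RefSeq table, 46 in all when alternative starts are counted, each spanning 250 bases before to 50 after the start. Mcm4, Gins1, Gins2, Gins4, Prim2, Pole and Rfc2 had no entry. E2F-type words were in 15 of the 46 promoters (32.6%), against 744 of 32851 promoters of all genes (2.26%) and 470 of 12027 of the genes tested (3.91%). Within the set the share was 30.6% of 36 promoters of lower genes and 37.5% of 8 promoters of genes that did not pass. Counted by gene, the shares were 39.3% of 28 lower genes and 37.5% of 8 genes that did not pass. The difference was not tested. CCAAT was in 54.3% of the 46 promoters, 37.4% of all and 38.1% of those of the genes tested. The CHR words TTTGAA and TTCGAA were in 15.2%, 19.2% and 14.2%. A match is only a run of letters and was not tested as a binding site.

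**Figure D2:**
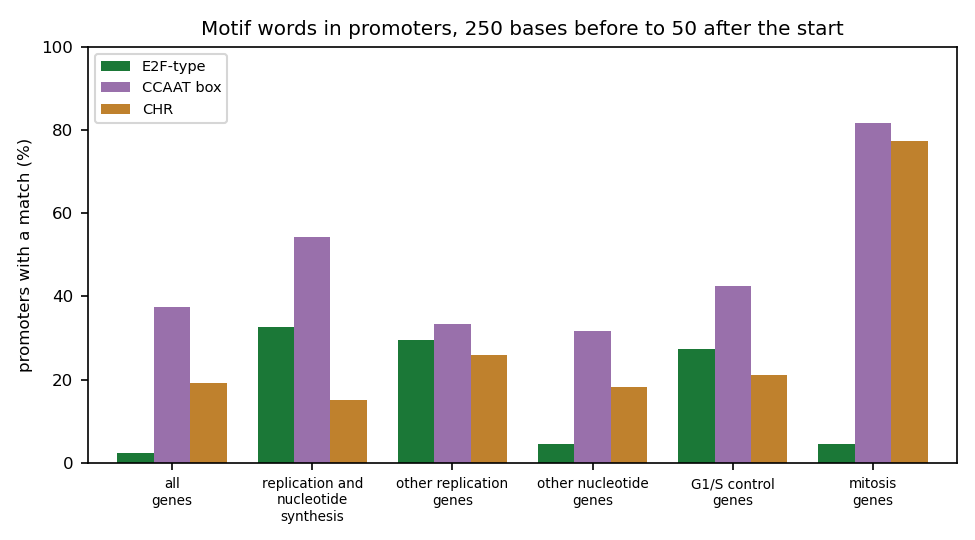
Share of promoters, in percent, that hold an E2F-type word, CCAAT or a CHR word, for the 45 genes, 4 related lists and all genes. E2F-type words were in 32.6% of promoters of the 45 genes and 4.55% of those of mitosis genes, which held CHR words in 77.3%.

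Origin licensing had 6 lower genes and 1 higher of 8, with a median log2 fold change of -0.46. Within the origin recognition complex, which marks origins, the 6 subunits differed in direction. Orc2 read 63.7 and 64.9 CPM in NC and 42.9 and 37.9 CPM in KO. Orc4 (chromosome 2, 48902824 to 48950277) read 51.6 and 49.97 CPM in NC and 29.7 and 33.8 CPM in KO. Both separated the groups, with log2 fold changes of -0.67 (SE 0.10) and -0.68 (SE 0.11) and adjusted p-values of 9.04e-06 and 1.66e-05. Orc5 read 28.9 and 29.3 CPM in NC and 19.3 and 23.2 CPM in KO, a log2 fold change of -0.45 (SE 0.13). Orc6 read 58.7 and 45.7 CPM in NC and 38.4 and 36.5 CPM in KO, a log2 fold change of -0.47 (SE 0.11). For Orc6 NC replicate 1 stood above the other NC library, and the groups did not overlap for either subunit (adjusted p = 0.00608 for Orc5 and 0.00158 for Orc6). Orc3 went the other way and read 52.9 and 51.3 CPM in NC and 61.9 and 67.6 CPM in KO. Both KO libraries were above both NC libraries, and the log2 fold change was 0.31 (SE 0.10), adjusted p = 0.0128. Orc1, the subunit whose level follows the cell cycle, read 9.85 and 10.8 CPM in NC and 9.72 and 8.51 CPM in KO and did not pass (log2 fold change -0.19, adjusted p = 0.424). Cdc6, the loading ATPase, read 79.3 and 82.7 CPM in NC and 69.8 and 48.2 CPM in KO. KO replicate 1 lay closer to NC than to KO replicate 2, and the log2 fold change was -0.46 (SE 0.12), adjusted p = 0.00308. Cdt1, which brings the MCM ring to the origin, read 193 and 186 CPM in NC and 154 and 127 CPM in KO, a log2 fold change of -0.43 (SE 0.10). Its KO libraries were both below NC, with an adjusted p of 0.000942. Exons of Orc2 overlap Nif3l1, those of Orc6 overlap Vps35 and those of Orc4 overlap Acvr2a and Mbd5 on the opposite strand.

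Helicase activation had 3 lower genes of 6, and 1 of the 4 GINS genes passed. Gins1 read 23.7 and 21.7 CPM in NC and 15.2 and 11.7 CPM in KO, a log2 fold change of -0.76 (SE 0.15) with adjusted p = 0.000189, and its groups did not overlap. Its 3 partners in the tetramer did not pass: the log2 fold changes were -0.23 (SE 0.10) for Gins2, -0.12 (SE 0.10) for Gins4 and 0.06 (SE 0.18) for Gins3. Gins2 was close to the threshold, with an adjusted p of 0.0524 and values of 104 and 98.8 CPM in NC and 91.3 and 81.0 CPM in KO. Its groups did not overlap, and it passed in 6 of 13 alternatives. Cdc45, the other helicase cofactor, read 27.2 and 28.2 CPM in NC and 20.4 and 17.2 CPM in KO, a log2 fold change of -0.56 (SE 0.13). Mcm10, which acts as the helicase is switched on, read 49.2 and 47.5 CPM in NC and 41.2 and 33.6 CPM in KO, a log2 fold change of -0.37 (SE 0.11). In each of these 2 genes both KO libraries were below NC, with adjusted p-values of 0.00136 and 0.00902.

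Among primase and the polymerases 4 of 9 genes were lower. None of the 4 genes of polymerase alpha-primase, which makes the RNA-DNA primers, passed the test, and their median log2 fold change was -0.08. The primase subunits Prim1 and Prim2 had log2 fold changes of -0.10 (SE 0.10) and -0.02 (SE 0.11), with 95% intervals of -0.31 to 0.12 and -0.23 to 0.20. The catalytic subunit Pola1 read 20.5 and 20.4 CPM in NC and 19.4 and 19.6 CPM in KO, a log2 fold change of -0.07 (SE 0.13) with an interval of -0.34 to 0.20. Pola2 was the nearest to passing, at -0.23 (SE 0.10) with an adjusted p of 0.0591. It passed with the length trend removed (adjusted p = 0.0395) and without KO replicate 1 (adjusted p = 0.0236). The intervals of Prim1 and Pola1 reach falls as large as that of Rfc3, which passed. Of polymerase delta, the lagging-strand enzyme, the 3 subunits among the 45 genes were lower, while Pold4, described with the related lists, was higher. Pold1, the catalytic subunit, read 99.5 and 98.8 CPM in NC and 87.7 and 68.8 CPM in KO, a log2 fold change of -0.34 (SE 0.10). Pold2 read 136 and 137 CPM in NC and 117 and 91.9 CPM in KO, a log2 fold change of -0.39 (SE 0.10). Pold3 read 42.7 and 40.5 CPM in NC and 33.5 and 30.6 CPM in KO, a log2 fold change of -0.38 (SE 0.11). In all 3 genes the KO libraries were below NC, with adjusted p-values from 0.00369 to 0.0103. In polymerase epsilon, the leading-strand enzyme, the accessory subunit Pole2 read 11.4 and 10.8 CPM in NC and 5.84 and 6.29 CPM in KO. It separated the groups, with a log2 fold change of -0.87 (SE 0.19) and an adjusted p of 0.000531, but it shares exons with Gm49384 on its own strand, to which 280 counts were assigned against 441 for Pole2. The catalytic subunit Pole read 57.4 and 64.6 CPM in NC and 55.5 and 46.8 CPM in KO and did not pass (log2 fold change -0.26, adjusted p = 0.0537).

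**Figure D3:**
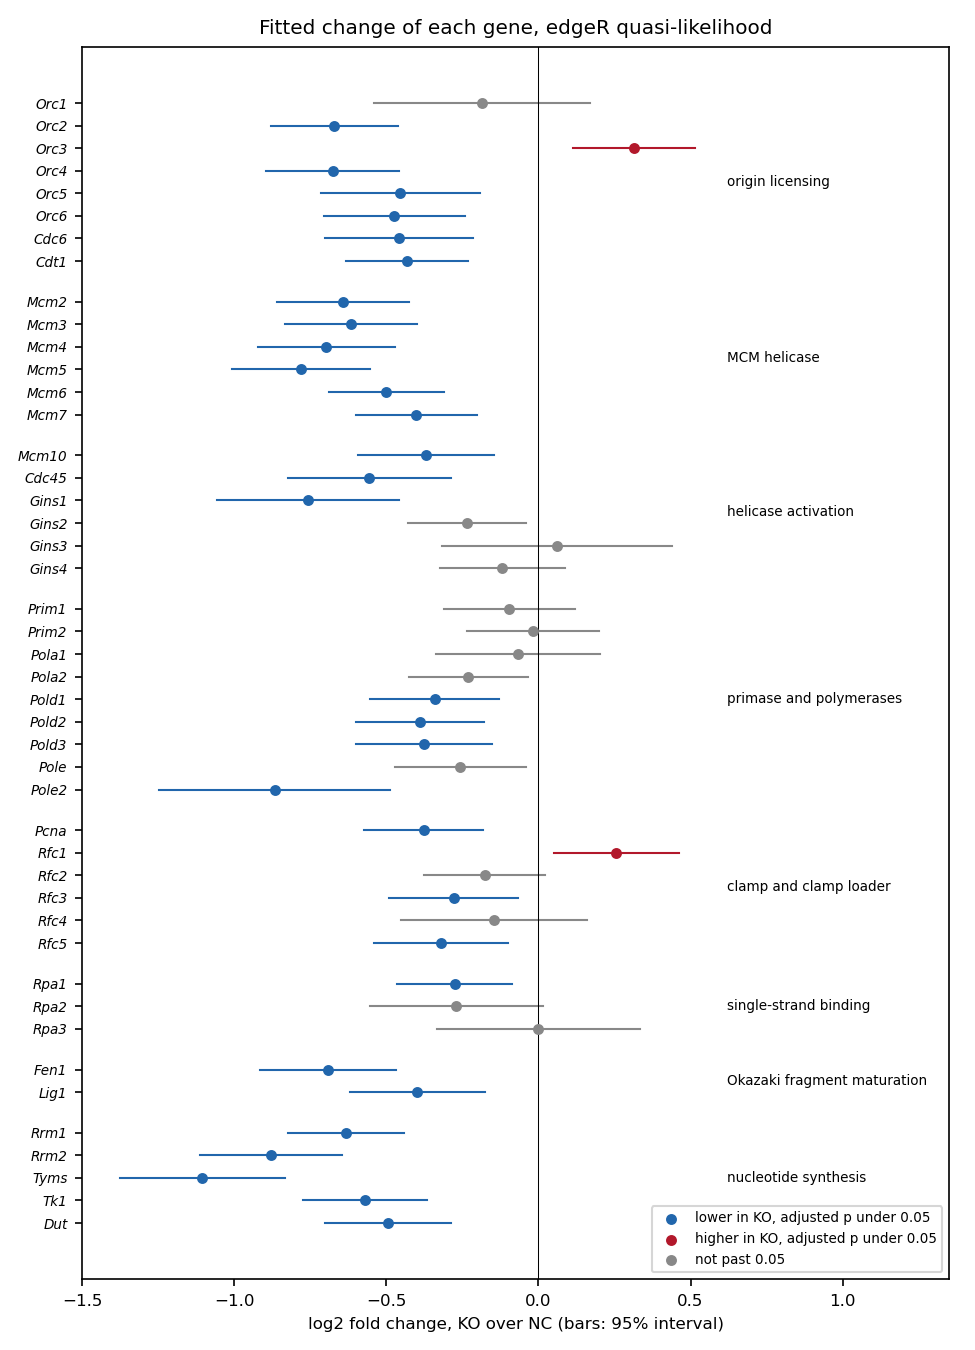
Log2 fold change of KO against NC for each of the 45 genes, by role, with 95% intervals from the edgeR fit. The 30 lower genes lie left of 0 and Orc3 and Rfc1 to the right, and among the 4 genes of polymerase alpha-primase the intervals of Prim1, Prim2 and Pola1 include 0.

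Pcna, the sliding clamp, read 199.9 and 199 CPM in NC and 167 and 141 CPM in KO. Both KO libraries were below NC, and the log2 fold change was -0.38 (SE 0.10), adjusted p = 0.00267. A processed pseudogene, Pcna-ps2, matches 99.2% of its aligned bases but was given only 52 counts, against 9129 for Pcna. The 5 subunits of the clamp loader, which opens and closes that ring, included 2 lower genes and 1 higher. Rfc3 read 78.8 and 82.7 CPM in NC and 74.2 and 59.1 CPM in KO, a log2 fold change of -0.28 (SE 0.10). Rfc5 read 65.2 and 62.2 CPM in NC and 56.9 and 45.01 CPM in KO, a log2 fold change of -0.32 (SE 0.11). In both genes KO replicate 2 was the lowest library, with adjusted p-values of 0.0352 and 0.0193. Rfc1, the large subunit, was higher and read 44.3 and 45.6 CPM in NC and 55.6 and 51.7 CPM in KO. Its log2 fold change was 0.26 (SE 0.10), adjusted p = 0.0450, near the threshold, and its groups did not overlap. DESeq2 gave Rfc1 no call, nor Rfc3 and Rfc5. Rfc2 and Rfc4 did not pass, with log2 fold changes of -0.18 (SE 0.10) and -0.14 (SE 0.15).

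Of the 3 subunits of RPA, which coats single-stranded DNA, 1 passed. Rpa1 read 253 and 241 CPM in NC and 215 and 193 CPM in KO, a log2 fold change of -0.28 (SE 0.09) with adjusted p = 0.0193, and both KO libraries were below NC. Rpa2 had a log2 fold change of -0.27 (SE 0.14), with an adjusted p of 0.128. Rpa3 read 11.0 and 12.1 CPM in NC and 12.6 and 10.6 CPM in KO, so that its groups overlapped, with a log2 fold change whose interval was -0.33 to 0.33. Both genes that finish Okazaki fragments were lower. Fen1, the flap nuclease, read 85.7 and 69.9 CPM in NC and 52.0 and 44.2 CPM in KO, a log2 fold change of -0.69 (SE 0.11) with adjusted p = 1.57e-05. Its groups did not overlap, although NC replicate 1 was well above NC replicate 2. Lig1, which seals the nicks, read 77.6 and 76.4 CPM in NC and 66.3 and 50.5 CPM in KO, a log2 fold change of -0.40 (SE 0.11) with adjusted p = 0.00467. KO replicate 2 was again the lowest library. Exons of Fen1 overlap Gm10143 and Tmem258, those of Lig1 overlap Zswim9, those of Cdc45 overlap Ufd1, those of Gins2 overlap Gse1, those of Rfc5 overlap Wsb2 and those of Tk1 overlap Afmid, all on the opposite strand.

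Levels per unit of length gave a different answer for some genes. The length that RSEM assigned to them, which divides the counts in TPM, differed between the groups. It is an average over the gene's transcripts, weighted by their estimated shares. For Orc4 it was 2121 and 2189.8 bases in NC and 2689 and 2648 bases in KO. The log2 ratio of mean lengths, 0.31, was larger in size than that of 94.8% of genes, and the log2 ratio of mean TPM, -0.96, was more negative than the count-based value of -0.68. Lig1 went the other way, with lengths of 2507 and 2158 bases in NC and 1845 and 1796 bases in KO. Rfc5 did so too, with 2403 and 2162 bases in NC and 1993 and 1845 bases in KO. For these 2 genes the log2 ratio of mean TPM was 0.054 and 0.012, so that both were lower by counts and not by TPM. Pold3 was also near 0, with a log2 ratio of mean TPM of -0.082. Rfc1, with 3301 and 3775 bases in NC and 2533 and 2843 bases in KO, had a log2 ratio of mean TPM of 0.75. Over all genes tested, the median log2 fold change was 0.060 on log2(TPM + 1) and -0.0037 on counts. Over log2(TPM + 1), limma called 2158 of all genes, where the count fit called 4741. Of the 45 genes it called 16 lower, 15 of them among the 30 and the other Gins2, and 2 higher. The 15 that did not pass there were Lig1, Rfc5, Orc2, Orc5, Orc6, Cdc6, Mcm7, Mcm10, Cdc45, Pold1, Pold2, Pold3, Pcna, Rfc3 and Rpa1. Cdc6 and Rfc3 did not pass although their log2(TPM + 1) changes, -0.52 and -0.33, were no smaller than by counts (-0.46 and -0.28). The others of the 15 were nearer 0 on log2(TPM + 1) than by counts. Tyms, Rrm1, Rrm2, Tk1, Dut, Mcm2, Mcm3, Mcm4, Mcm5, Mcm6, Cdt1, Orc4, Gins1, Pole2 and Fen1 were lower in the count fit and in 12 of its 13 alternatives, the exception being unfiltered TPM, where no gene passed.

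**Figure D4:**
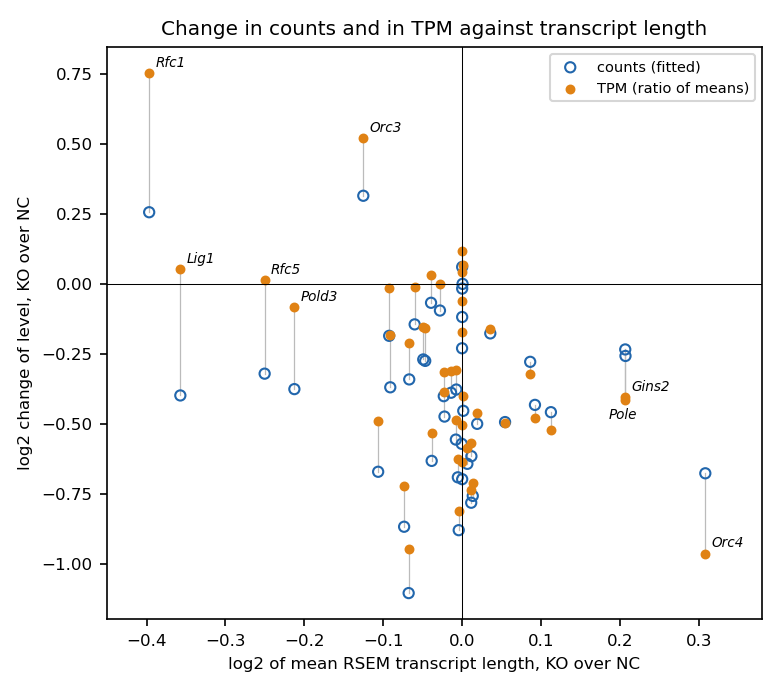
Log2 change of KO against NC (y axis) against the log2 ratio of mean RSEM length (x axis) for the 45 genes; open circles are count-based fold changes, filled circles ratios of mean TPM, and a line joins the same gene. Genes whose assigned length was shorter in KO have a TPM value above their count value, such as Lig1, Rfc5 and Rfc1, and Orc4, with a longer length, has a TPM value below it. TPM values also lie above count values for some genes of unchanged or longer length, such as Mcm4 (-0.64 against -0.70) and Mcm2 (-0.59 against -0.64). Over all genes tested the median was 0.060 on log2(TPM + 1) and -0.0037 on counts.

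Other genes of the same processes were taken from 4 lists by function. Of 30 further replication genes, 12 were lower and 1 higher, with a median log2 fold change of -0.16. Dna2, a nuclease and helicase that trims long flaps, read 12.2 and 12.1 CPM in NC and 5.77 and 4.66 CPM in KO, a log2 fold change of -1.22 (SE 0.19), which exceeded that of Tyms in size. Pold4, the small subunit of polymerase delta, was the 1 that was higher and read 31.8 and 24.8 CPM in NC and 44.8 and 49.8 CPM in KO, a log2 fold change of 0.75 (SE 0.12), opposite to its 3 partners. Top1, which relieves supercoiling, had a log2 fold change of -0.55. The fork protector Timeless was at -0.51, the MCM-binding protein Mcmbp at -0.47 and the histone chaperone subunit Chaf1b at -0.50. These 6 were the genes of the list with the lowest p, with edgeR adjusted p-values up to 0.00122. Pold4 shares exons with AC109138.7 on its own strand.

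Of 33 further genes of nucleotide synthesis, 22 were lower and 2 higher, with a median of -0.42. Dtymk, the kinase that acts after Tyms and Tk1, read 96.8 and 98.9 CPM in NC and 54.8 and 44.3 CPM in KO, a log2 fold change of -0.98 (SE 0.10). Nme1, a nucleoside diphosphate kinase that shares exons with Gm20390 on its own strand, was at -0.91. The folate enzymes Shmt2 and Mthfd1, which supply one-carbon units, were at -0.76 and -0.79. Adsl of purine synthesis and Gmps, which makes GMP, were at -0.69 and -0.62. The 2 that were higher, named after their values were seen, were Tk2 at 0.61 (SE 0.16), the mitochondrial thymidine kinase, and Ctps2 at 0.50 (SE 0.17), a CTP synthase. The median of the 45 genes was -0.39.

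**Figure D5:**
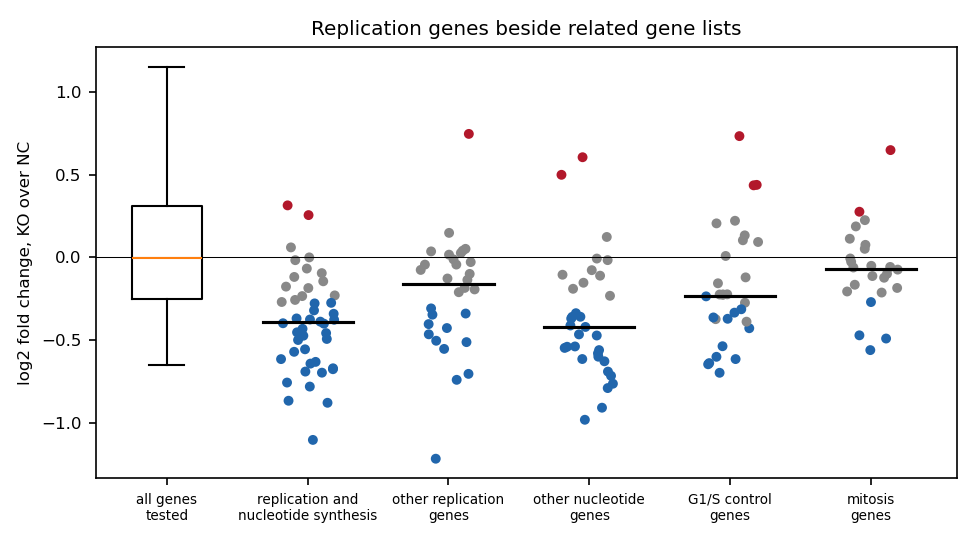
Log2 fold changes of KO against NC for each gene of the 45 and of the 4 related lists, with the median of each list as a bar (blue lower and red higher at adjusted p under 0.05, grey not past), and all genes tested as a box of quartiles with whiskers from the 5th to the 95th percentile. The medians were -0.39 for the 45 genes, -0.16 for other replication genes, -0.42 for other nucleotide genes, -0.23 for G1/S control genes and -0.068 for mitosis genes.

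Among 32 genes that control the G1/S step, Ccnd2 and Cdkn1c had 0 counts in all libraries and were not tested. Of the 30 tested, 12 were lower and 3 higher, with a median of -0.23. Skp2, an F-box protein that targets Cdkn1b, read 88.5 and 102 CPM in NC and 62.2 and 55.6 CPM in KO, a log2 fold change of -0.70 (SE 0.10). The kinase Cdk4 was at -0.54 and cyclin Ccne2 at -0.65, but the latter's log2(TPM + 1) difference was 0.037. E2f8 and E2f3 were at -0.64 and -0.60, and the Cdk4 inhibitor Cdkn2c was at -0.62. E2f1 read 79.2 and 82.0 CPM in NC and 91.4 and 80.5 CPM in KO and did not pass, with an adjusted p of 0.473. The 3 that were higher, named after their values were seen, were the E2F repressor Rb1 at 0.73 (SE 0.14), the Cdk inhibitor Cdkn1a at 0.44 (SE 0.09) and the Cdk4 and Cdk6 inhibitor Cdkn2d at 0.44 (SE 0.16). Rbl1, Rbl2, Cdkn1b, Cdkn2a and Cdkn2b, of the same families, were tested and not called higher, and Cdkn2c was lower. Exons of Cdk4 overlap Tspan31, those of Ccne2 overlap Ints8 and those of E2f8 overlap Gm2788, all on the opposite strand. Those of Rb1 overlap Lpar6 and Rcbtb2 and those of Cdkn1a overlap AC167363.2, also on the opposite strand.

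Of 24 genes of mitosis, 4 were lower and 2 higher, with a median of -0.068. Shares lower were 16.7% for this list, 66.7% for the 45 genes and 18.2% for all genes tested. The kinase Plk1 was at -0.56, the checkpoint protein Mad2l1 at -0.47, the APC/C activator Cdc20 at -0.49 and cyclin Ccnb2 at -0.27. The kinetochore proteins Cenpf and Cenpe were higher, at 0.65 (SE 0.09) and 0.28 (SE 0.09). Cenpe and Ccnb2 did not pass without NC replicate 2 or without KO replicate 2, nor Ccnb2 without NC replicate 1. The proliferation marker Mki67 read 407 and 462 CPM in NC and 517 and 499 CPM in KO. Top2a, a topoisomerase of dividing cells, read 537 and 529 CPM in NC and 617 and 596 CPM in KO. The KO libraries were above NC for both, and neither passed (edgeR adjusted p = 0.0600 and 0.108). Both genes were named apart from the rule of lowest p. Of the 24 genes, 17 had a log2 fold change below 0, against 6311 of 12510 for all genes tested. Both KO libraries were below both NC libraries for 12 of the 24 and above them for 6. Over all genes tested those shares were 34.7% and 34.8%. The difference between the lists was not tested.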

How the data were processed

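RNA was measured in 2 NC and 2 KO samples of Hepa1-6 with a directional library kit, per the labels' protocols. Each deposited file gives, per gene, the authors' expected counts, TPM, FPKM and lengths in bases, per the file headers; FPKM was not used. STAR, RSEM, FastQC and DESeq2 and the builds GRCm38 and mm10 are listed in the submitters' processing notes, without versions, and the annotation release and strand setting are not given in the sources used here. RSEM divides reads shared by several genes, so close copies can exchange counts.

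The expected counts were rounded; totals moved by at most 0.000188%. Genes were filtered with filterByExpr, scaled by TMM (0.981 to 1.02) and tested with the quasi-likelihood test of edgeR 4.0.16 in R 4.3.3, KO against NC, two-sided, with Benjamini-Hochberg adjustment over 12510 genes and a threshold of 0.05. CPM are these scaled counts per 1000000. The TPM deposited by the authors entered limma 3.58.1 as log2(TPM + 1), which understates changes of low genes. Of 54838 identifiers 54809 were in GENCODE M21. On simulated data with 200 changed genes and the depths of these libraries, the edgeR test (12456 genes) found 70% of 1.5-fold, 85.7% of 2-fold and 100% of 4-fold changes with the right sign, and called 14 of 12260 unchanged genes. Alternatives were DESeq2 1.42.0, other scaling, filters, pseudocounts, a robust fit, a length correction, a replicate block and leaving out each library. The replicates differed by more than sampling noise (chi-square per degree of freedom 7.15 in NC and 10.0 in KO).

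All 45 genes were accounted for, each that passed with its value in every sample. From each of the 4 related lists the 6 genes with the lowest p were named. Further genes of those lists, such as E2f1, Mki67 and Top2a, were named apart from that rule. The genes and lists were chosen with earlier results of these data known.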

Additional observations from a re-analysis of the deposited data

How the results depend on the processing

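With 2 samples a group and 1 cell line, these limits hold throughout: a lone library left in a group is assumed to vary like the others, and strand setting and clone number are unknown. On TPM, calls shifted towards higher genes (68.0% of calls against 51.9%). Over log2(TPM + 1) and log2(TPM + 0.1), 2158 and 2099 genes passed in place of 4741 (691 and 672 lower, 1467 and 1427 higher), 16 and 16 of the 45 genes were lower in place of 30, other replication genes lower numbered 1 and 1, other nucleotide genes 9 and 9 lower and 1 and 1 higher, G1/S genes 3 and 3 lower and mitosis genes 2 and 2 lower. Without a filter on TPM, limma called 0 genes in any list or direction, with 4506 at an unadjusted p under 0.05, among them 20 of the 45 genes lower and 2 higher; more genes were tested there. Of the 45 genes, 1 was higher with no filter on counts, 1 with the length trend removed and 1 with DESeq2, which also gave 1 other nucleotide gene and 1 mitosis gene as higher, and called 3217 genes. Leaving out 1 library gave 20 to 34 lower and 0 to 1 higher genes of the 45, a median of -0.52 to -0.23, 6 to 15 other replication genes lower, 1 to 2 other nucleotide genes higher, 1 to 2 mitosis genes higher and 3507 to 4488 genes in all; the fewest lower genes of the 45 and the median nearest 0 came without KO replicate 2. With the replicate number as a block, 5006 genes passed and 32 of the 45 were lower, Gins2 and Pole being added; same-numbered samples showed a correlation of deviations of -0.0116, so the numbers were not taken as a pairing. Genes whose log2 fold change turned above 0 were near 0 or differed in assigned length. Rpa3 was at 0.00059 with DESeq2 size factors, 0.0025 with DESeq2, 0.14 with the length trend removed, 0.060 and 0.062 on TPM, and from -0.13 to 0.12 with a library left out. Prim2 was at 0.0066 with the length trend removed, 0.038 and 0.039 on TPM and from -0.093 to 0.054 with a library left out. On TPM Pola1 was at 0.025 and 0.031, Rfc5 at 0.0081 and 0.0082, Lig1 at 0.045 and 0.046 and Ccne2 at 0.037 and 0.037. With a library left out Prim1 ran from -0.22 to 0.019 and Rfc4 from -0.30 to 0.0071. The cause of these changes was not tested.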

Other observations

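Within the other nucleotide genes, 2 groups of enzymes were drawn out after their values were seen, so their counts and medians reflect that choice. Of the whole list 66.7% were lower, with a median log2 fold change of -0.42, and of all genes tested 18.2%. Of the 6 enzymes of de novo purine synthesis, 5 were lower in the libraries labelled KO, with a median log2 fold change of -0.57. Ppat, the first enzyme of that route, read 42.4 and 40.8 CPM in NC and 28.7 and 26.1 CPM in KO, a log2 fold change of -0.60 (SE 0.11). Pfas and Atic, which act later, read 74.3 and 73.1 against 52.4 and 43.0 CPM and 171 and 183 against 129 and 113 CPM (NC against KO). Paics, which shares exons with Ppat on the opposite strand, did not pass, at -0.19 (SE 0.09). The 4 enzymes of folate one-carbon metabolism that were listed, Shmt1, Shmt2, Mthfd1 and Mthfd2, were all lower, with a median of -0.74. Mthfd2, the mitochondrial dehydrogenase of that pathway, read 28.1 and 35.0 CPM in NC and 21.5 and 17.1 CPM in KO. Both its KO libraries were below both NC libraries, and the log2 fold change was -0.72 (SE 0.14), with an edgeR adjusted p of 0.000167.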
